A study of Mus musculus with 4 samples.

Results

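The genes described here are 9 transcription factors and cofactors of the red cell lineage, Klf1, Gata1, Gfi1b, Tal1, Nfe2, Zfpm1, Lmo2, Ldb1 and Cbfa2t3, and the erythropoietin receptor gene Epor. They were chosen by name and with earlier results of these data known. Every probe set was taken that the array's annotation assigned to exactly 1 of these genes. All 10 genes were found, each with 1 probe set, among 22180 genes measured. Expression was measured on 4 Affymetrix arrays. The RNA came from LSK cells, bone marrow cells sorted as negative for lineage antigens and positive for Sca1 and c-Kit. This sort enriches blood stem cells and multipotent progenitors, and it is meant to leave out red cell precursors. The KO group was 2 samples from male SRC-3 knockout mice aged 8 weeks, and the WT group was 2 samples from male wild-type mice of the same age. Marrow was flushed from femur and tibia, and red cells were lysed before the sort. The sources used here do not give the strain, the deleted part of the SRC-3 gene, whether it was deleted in all cells, or how many mice made a sample.

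KLF1 and GATA1 are the DNA-binding factors that switch on the genes of hemoglobin, heme and the red cell membrane. GATA1 works on DNA in a complex with TAL1, LMO2 and LDB1, and with the cofactor that Zfpm1 encodes, known as FOG1. CBFA2T3, also called ETO2, joins the TAL1 complex as a corepressor, and GFI1B is a repressor needed for red cells and platelets. NFE2 is a subunit of a factor that drives platelet and globin genes, and EPOR receives the hormone that keeps red cell precursors alive. In LSK cells Tal1, Lmo2 and Ldb1 are known to serve stem cells as well, whereas Klf1 and Epor are known mainly from cells already bound for the red lineage.

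The values were log2 expression summaries, and no array could be given a sequencing depth. Array medians over all probe sets were 3.84 to 3.91 in KO and 3.97 to 4.05 in WT. Correlation across genes (no independent replicates) was 0.992 between the KO arrays, 0.986 between the WT arrays, and 0.977 to 0.982 between arrays of different genotype. Ncoa3, the gene for SRC-3, was at 5.35 and 5.09 in KO and at 7.76 and 7.05 in WT, a difference of -2.19 ± 0.27 (SE, limma adjusted p = 0.038). Of 7 genes listed as markers of LSK cells and their subsets, 6 had a probe set of their own. Ly6a, the Sca1 gene, did not. Kit, the c-Kit gene, was at 9.43 and 9.34 in KO and 10.3 and 9.65 in WT. Of the 10 measured genes of the lineage antigen list, 5 were at or above the median gene, Ptprc among them. The monocyte antigen gene Ly6c2 was at 12.1 and 12.3 in KO and 11.4 and 11.6 in WT (0.71 ± 0.13, SE, adjusted p = 0.079). Ptprc, the gene of CD45, an antigen of leukocytes in general, averaged 8.58 in KO and 9.32 in WT (-0.74 ± 0.15, SE, adjusted p = 0.098). The NK cell gene Klrb1c averaged 2.80 and 3.65, below the median gene in both groups (-0.85 ± 0.18, SE, adjusted p = 0.10). The myeloid integrin gene Itgam was at -1.21 ± 0.27 (SE, adjusted p = 0.11). Limma called 0 of the 10. At a raw p under 0.05, 1 was higher and 4 were lower, Ptprc among the 4, against 10.5% and 6.93% of all genes. The median difference of the 10 was -0.33. Replicates within a genotype are labelled as biological, though whether each was 1 mouse or a pool is left unstated, so a p-value covers no more than the spread among these 4 arrays.

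Of the 10 genes, Klf1 and Gfi1b rose in KO cells and none fell past the threshold, an adjusted p under 0.05 over all 22180 genes in limma. Over all genes 0.397% were called higher and 0.113% lower. By the unadjusted p (under 0.05), 4 of the 10 were higher (Klf1, Gfi1b, Epor and Gata1) and 1 was lower (Cbfa2t3), against 10.5% and 6.93% of all genes. The KO mean was the higher in 8 of the 10, against 49.7% of all genes, and 3 were 2-fold or more higher (Klf1, Gfi1b and Epor), against 1.38%. Both KO arrays lay above both WT arrays for 5 of the 10, the same 4 and Tal1, against 25.1% of all genes and 34.4% of genes no dimmer than the median gene. Both lay below for 1 of the 10, Cbfa2t3, against 22.9% of all genes. The median difference was 0.35 on the log2 scale, against -0.001 over all genes and 0.04 over genes no dimmer than the median gene. It was 0.52 without WT replicate 1 and 0.14 without WT replicate 2. In bulk RNA a larger share of cells that express a gene cannot be told apart from more RNA per cell. The calls depended on single arrays. Without KO replicate 1 the median difference was 0.33, and without KO replicate 2 it was 0.37. In a fit with 1 KO array the spread comes from the WT pair alone. Calls were then lost among all genes, not only these 10. Without WT replicate 1, 4 were called higher and 0 lower, while 1442 of all genes were called higher and 312 lower. Without WT replicate 2, 4 were called higher and 2 lower, while 1730 of all genes were called higher and 1272 lower. In any fit with 1 WT array the spread comes from the KO pair alone and the lone WT array is assumed to vary like it, which makes calls easier where the KO arrays lie closer together.

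**Figure D1:**
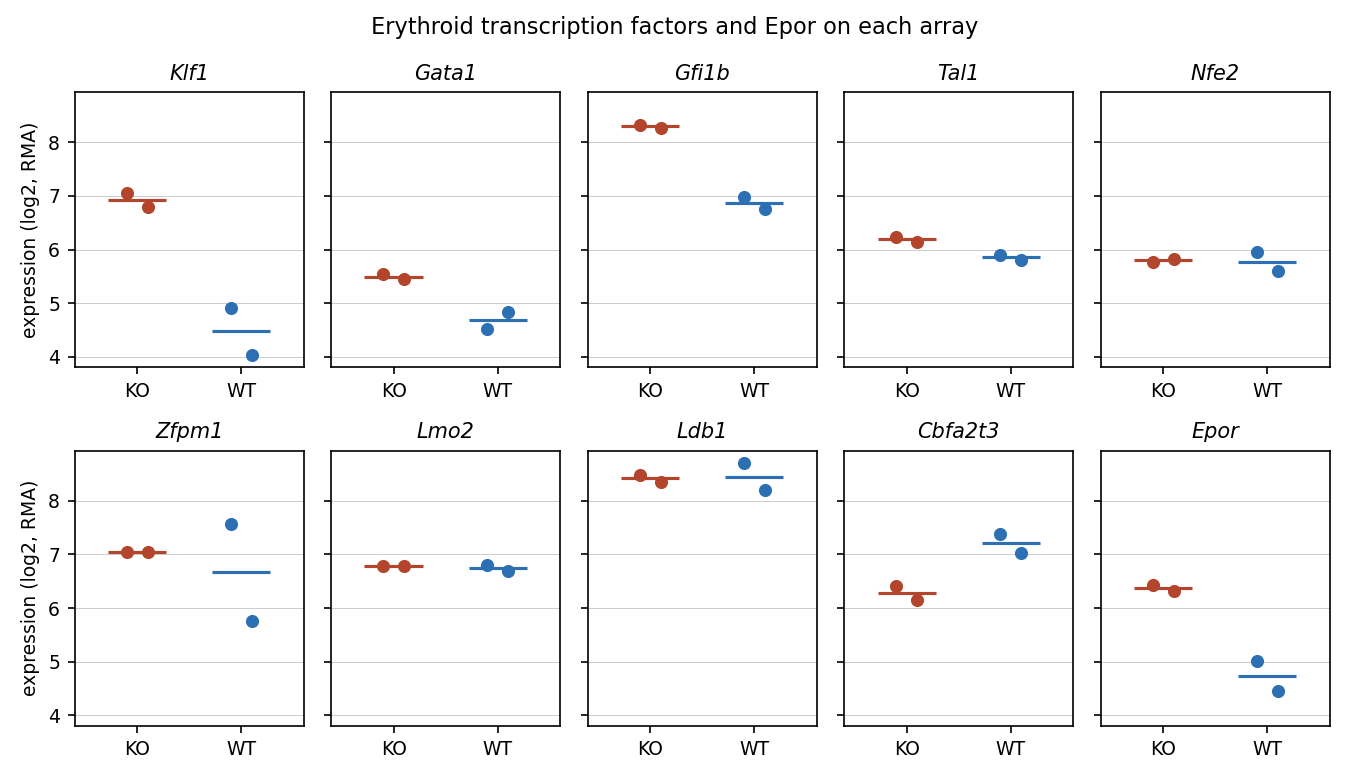
Expression of the 10 genes on each array (log2, y axis), with KO arrays left and WT arrays right in each panel, replicate 1 before replicate 2. Points are arrays and lines are group means. Klf1, Gfi1b, Epor, Gata1 and Tal1 have both KO points above both WT points, and Cbfa2t3 has both below.

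Klf1, which encodes the factor that binds CACCC sequences at globin and red cell membrane genes, had the largest difference of the 10. Its probe set (17503254, gene identifier 16596) was at 7.06 and 6.80 in KO and at 4.92 and 4.04 in WT. The groups did not overlap, and the gap between the lower KO array and the higher WT array was 1.88. The difference was 2.45 ± 0.31 (SE, 95% interval 1.71 to 3.18, limma adjusted p = 0.039), or 5.46-fold. Only 0.063% of all genes had a larger increase. The WT mean of 4.48 was close to that of the median gene, 4.32. RMA values of dim probe sets are compressed, so the fold may be understated, though this was not tested. The size also depended on the WT array. The difference was 2.89 without WT replicate 1 and 2.01 without WT replicate 2. Without KO replicate 1 the difference was 2.32 (adjusted p = 0.73), and without KO replicate 2 it was 2.58 (adjusted p = 0.51). With all 41345 probe sets fitted together, named or not, its adjusted p was 0.098.

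Gfi1b, whose product represses genes through a histone demethylase complex, had close values within each group. It was at 8.32 and 8.27 in KO and at 6.97 and 6.76 in WT (probe set 17383413, gene identifier 14582). All KO values lay at least 1.30 above all WT values. The difference was 1.43 ± 0.17 (SE, 95% interval 1.02 to 1.84, limma adjusted p = 0.034), or 2.70-fold. It was 1.41 (adjusted p = 0.73) without KO replicate 1 and 1.46 (adjusted p = 0.55) without KO replicate 2. Over all 41345 probe sets its adjusted p was 0.082.

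Epor was at 6.43 and 6.31 in KO and at 5.02 and 4.45 in WT (probe set 17524847, gene identifier 13857). The groups were 1.30 apart at their nearest values, the same gap as for Gfi1b. Its difference of 1.64 ± 0.23 (SE, 95% interval 1.08 to 2.20), or 3.11-fold, missed the threshold with a limma adjusted p of 0.055. It passed after quantile normalization (adjusted p = 0.039), with each array centred on its median (0.024), without the intensity trend (0.0499) and in a fit restricted to the brighter genes, those no dimmer than the median (0.036). It also passed without WT replicate 1 (0.020) and without WT replicate 2 (0.013), but not without KO replicate 1 (0.73) or KO replicate 2 (0.55). Over all probe sets of the table its adjusted p was 0.11.

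Gata1, the factor that gives the GATA family its place in red cell biology, was at 5.55 and 5.45 in KO and at 4.52 and 4.84 in WT (probe set 17539966, gene identifier 14460). Both KO values lay above both WT values, by at least 0.61. The difference was 0.82 ± 0.19 (SE, 95% interval 0.36 to 1.28), 1.76-fold, and did not pass (limma adjusted p = 0.12). Without WT replicate 2 it was 0.98 (adjusted p = 0.033), but it did not pass without WT replicate 1 (0.094), KO replicate 1 (0.74) or KO replicate 2 (0.57), nor in any fit to all 4 arrays. Gata1 was also the 1 gene of the 10 with a lower value in WT replicate 1 than in WT replicate 2.

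**Figure D2:**
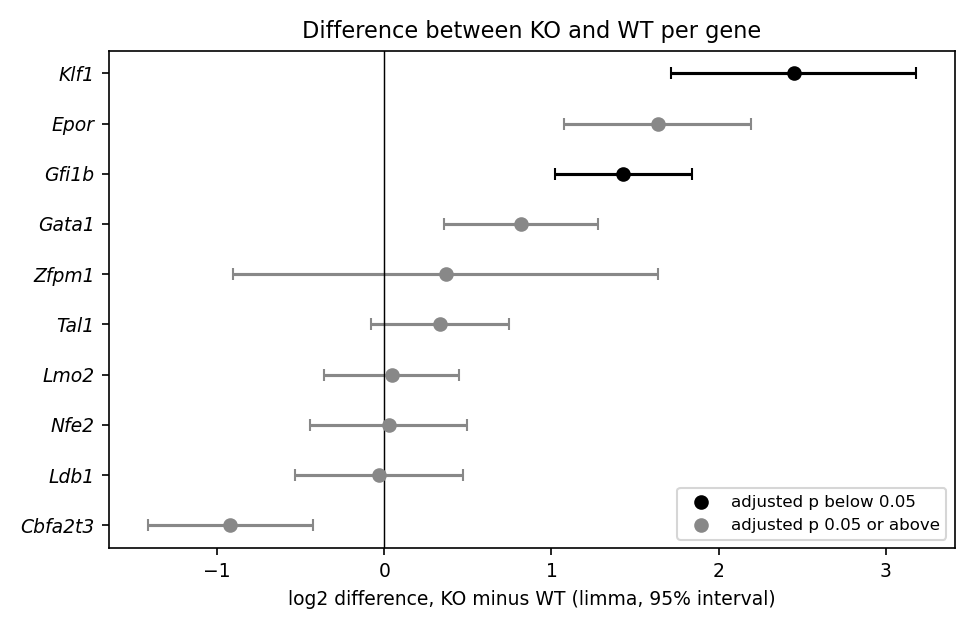
Difference between KO and WT for each gene (log2, x axis), as the limma estimate with its 95% interval. Black points have an adjusted p under 0.05 over all genes, and grey points do not. The interval lies above 0 for Klf1, Epor, Gfi1b and Gata1 and below 0 for Cbfa2t3.

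The stretches before the start sites of these 5 genes are shown because they had the largest differences of the 10 and because GATA1 and KLF1 are known to bind red cell promoters. They are the 250 bases before the start in RefSeq's table (GRCm38.p6), 5′ to 3′ on the gene's strand. Capitals mark matches on either strand to CACCC or to a GATA word, which here means AGATAA, the same word with T as its first base (TGATAA), or either of these with G as the last base.
Klf1, chr8:84901732-84901981, plus strand: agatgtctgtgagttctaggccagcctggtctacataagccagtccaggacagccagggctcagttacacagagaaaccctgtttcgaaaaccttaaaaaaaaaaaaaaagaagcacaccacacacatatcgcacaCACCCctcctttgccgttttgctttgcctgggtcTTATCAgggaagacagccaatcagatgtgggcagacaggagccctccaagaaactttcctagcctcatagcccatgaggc
Gfi1b, chr2:28621983-28622232, minus strand: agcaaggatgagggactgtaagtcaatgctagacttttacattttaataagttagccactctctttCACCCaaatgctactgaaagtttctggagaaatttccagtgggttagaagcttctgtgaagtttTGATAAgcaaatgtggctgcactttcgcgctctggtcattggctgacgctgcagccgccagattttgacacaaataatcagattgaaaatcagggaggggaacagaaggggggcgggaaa
Epor, chr9:21963577-21963826, minus strand: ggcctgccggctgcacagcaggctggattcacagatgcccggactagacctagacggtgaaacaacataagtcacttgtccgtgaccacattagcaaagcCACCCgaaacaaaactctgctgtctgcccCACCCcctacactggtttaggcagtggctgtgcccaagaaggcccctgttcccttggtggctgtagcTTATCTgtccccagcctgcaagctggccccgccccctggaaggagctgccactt
Gata1, chrX:7967911-7968160, minus strand: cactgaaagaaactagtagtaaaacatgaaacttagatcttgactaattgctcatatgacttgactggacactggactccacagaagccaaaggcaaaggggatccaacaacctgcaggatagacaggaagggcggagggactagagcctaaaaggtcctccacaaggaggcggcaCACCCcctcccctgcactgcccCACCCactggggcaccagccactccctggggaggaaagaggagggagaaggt
Cbfa2t3, chr8:122699110-122699359, minus strand: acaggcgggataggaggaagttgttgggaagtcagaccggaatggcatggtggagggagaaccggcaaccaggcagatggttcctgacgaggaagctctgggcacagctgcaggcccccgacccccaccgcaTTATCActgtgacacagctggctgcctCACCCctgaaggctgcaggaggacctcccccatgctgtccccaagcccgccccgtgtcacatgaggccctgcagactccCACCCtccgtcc

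A GATA word began 80 bases before the start of Klf1, 120 before that of Gfi1b, 54 before that of Epor and 118 before that of Cbfa2t3, and the Gata1 window held none. Cbfa2t3 has a second window, chr8:122678176-122678425, with 0 GATA words, 1 CACCC match and 1 E-box; the one printed is that of its outermost start. Klf1 and Gfi1b had 1 CACCC match each, and Epor, Gata1 and the Cbfa2t3 window 2 each. E-boxes (CANNTG), the words that TAL1 and its partners bind, numbered 1 for Klf1 and Gata1, 2 for Gfi1b and Epor and 4 for Cbfa2t3, and over all windows of the 10 genes 7 of 12 held one, against 66.2% of promoters. In Gfi1b 1 of them overlaps the CACCC match. In all, 8 of the 10 genes had a window in the table, with 12 windows among them, since Tal1, Ldb1 and Cbfa2t3 have several. GATA words stood in 6 of the 12 windows, against 26.5% of 32851 promoters of the same length, and CACCC in 11, against 52.0%. Both stood together in 6 windows, against 11.8%. Such windows occurred in genes with large and small differences alike: Tal1 and Ldb1 each had a window with both words. A match is a string of letters in a window and shows no binding.

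Among the genes of the TAL1 complex, none passed the threshold in limma. Tal1, a basic helix-loop-helix factor, was at 6.24 and 6.15 in KO and at 5.90 and 5.81 in WT. The groups did not overlap, but the nearest values were 0.24 apart. The difference of 0.33 ± 0.17 (SE, adjusted p = 0.39) had a 95% interval of -0.08 to 0.75. Lmo2, the LIM-only bridge between TAL1 and GATA1, was at 6.79 and 6.78 in KO and at 6.80 and 6.69 in WT. Its groups overlapped, and the difference was 0.04 ± 0.17 (SE, adjusted p = 0.93, 95% interval -0.36 to 0.45). Ldb1, whose product joins distant complexes into loops, was at 8.48 and 8.35 in KO and at 8.70 and 8.19 in WT. The KO values lay between the WT values, with a difference of -0.03 ± 0.21 (SE, adjusted p = 0.97, 95% interval -0.53 to 0.47), which was 0.10 once each array was centred on its median.

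Cbfa2t3 went the other way. Its probe set (17513806, gene identifier 12398) was at 6.41 and 6.16 in KO and at 7.38 and 7.03 in WT, so that all KO values lay at least 0.62 below all WT values. The difference was -0.92 ± 0.21 (SE, 95% interval -1.42 to -0.43, limma adjusted p = 0.11), and 99.0% of all genes had a larger value. Without WT replicate 2 it was -1.10 (adjusted p = 0.022), but it did not pass without WT replicate 1 (0.070), KO replicate 1 (0.74) or KO replicate 2 (0.59). The corepressor was thus the 1 gene of the 10 whose interval lay below 0.

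Zfpm1, for the cofactor that carries GATA1 to corepressors, could not be placed, because its WT arrays disagreed. It was at 7.04 on both KO arrays and at 7.58 and 5.77 in WT. The KO values lay between the WT values, and the WT SD was 1.28, against 0.0018 in KO (n = 2 each). The difference of 0.37 ± 0.53 (SE, adjusted p = 0.79) had a 95% interval of -0.91 to 1.64. Without WT replicate 1 it was 1.27 (adjusted p = 0.021) and without WT replicate 2 it was -0.54 (adjusted p = 0.034). In these fits the spread came from the KO pair alone, so neither call takes in the distance between the WT arrays, and no direction was assigned. Nfe2 was at 5.77 and 5.83 in KO and at 5.95 and 5.61 in WT. Its groups overlapped, with a difference of 0.03 ± 0.19 (SE, adjusted p = 0.97, 95% interval -0.44 to 0.49).

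The WT arrays differed from each other in these genes more than the KO arrays did. Of the 10 genes, 9 were higher in WT replicate 1 than in WT replicate 2, by a mean over the 10 of 0.45. Of all genes 46.6% were higher in WT replicate 1. Among genes no dimmer than the median gene, as all 10 are, 6562 of 11090 were higher in it. The WT SD was the larger in all 10 genes, against 60.2% of all genes and 73.7% of genes no dimmer than the median gene. The median SD was 0.067 in KO and 0.25 in WT, against 0.077 and 0.20 over genes no dimmer than the median gene. Set against WT replicate 2, 9 of the 10 were higher in KO replicate 1 and 9 in KO replicate 2, against 48.3% and 51.6% of all genes. Set against WT replicate 1, 5 were higher in each KO array, against 48.0% of all genes for KO replicate 1 and 53.1% for KO replicate 2. Klf1, Gfi1b, Epor, Gata1 and Tal1 were higher in every pairing. What distinguishes the WT samples is not given in the labels.

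**Figure D3:**
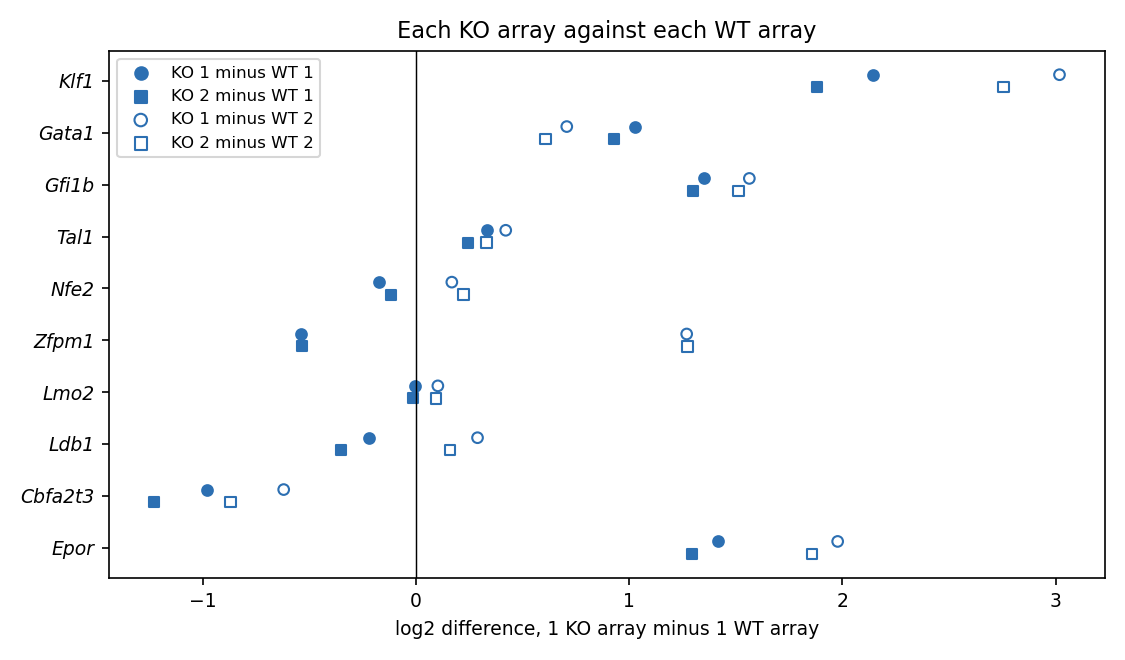
Log2 difference of each KO array from each WT array (x axis) for the 10 genes. Filled symbols are against WT replicate 1 and open symbols against WT replicate 2, circles are KO replicate 1 and squares KO replicate 2. Zfpm1, Nfe2, Lmo2 and Ldb1 fall on either side of 0 depending on the WT array, while Klf1, Gata1, Gfi1b, Tal1 and Epor stay above 0 and Cbfa2t3 below.

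No gene for a partner of these factors passed the threshold. Of 21 for partners and corepressors of the TAL1 and GATA1 complexes, limma called 0. At a raw p under 0.05, 2 were higher and 3 lower, against 10.5% and 6.93% of all genes. The median difference of the 21 was -0.10, 0.06 without WT replicate 1 and -0.28 without WT replicate 2. Tcf3, an E protein that pairs with TAL1, was at 6.89 and 6.78 in KO and 7.18 and 6.24 in WT, and its relative Tcf4 was at 7.58 and 7.45 in KO and 8.68 and 8.25 in WT. Tcf4 had the smallest p of the list (-0.95 ± 0.20, SE, adjusted p = 0.10). The corepressor genes Gatad2b and Hdac1 were at -0.71 ± 0.19 and 0.65 ± 0.22 (SE, adjusted p = 0.15 and 0.21), and the LIM-only gene Lmo4 at 0.50 ± 0.17 (SE, adjusted p = 0.21). Among 8 genes of the family of NFE2 and its small Maf partners, limma also called 0. By the raw p 0 were higher and 2 lower, against the same shares of all genes. The median of the 8 was -0.19, or -0.05 without WT replicate 1 and -0.37 without WT replicate 2. The small Maf genes Mafk and Mafg were at -0.29 ± 0.30 and 0.02 ± 0.20 (SE). Bach2, a repressor that shares sites with NFE2, was at 4.44 and 4.80 in KO and 5.96 and 5.63 in WT, without overlap (-1.17 ± 0.22, SE, adjusted p = 0.082). In fits with 1 WT array limma called more of all genes than with all 4 arrays, so calls there are not counted for these lists.

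Of 15 other regulators of red cell formation, 13 had a lower mean in KO, against 11145 of all 22180 genes. Limma called 0 of the 15. At a raw p under 0.05, 1 was higher and 3 lower, against 10.5% and 6.93% of all genes. The median difference of the 15 was -0.29, -0.14 without WT replicate 1 and -0.29 without WT replicate 2. Gata2, the family member that precedes Gata1 in stem and progenitor cells, was at 6.53 and 6.38 in KO and 6.89 and 6.43 in WT. These values overlapped (-0.20 ± 0.21, SE, adjusted p = 0.70). Klf13, a relative of Klf1, was at -0.78 ± 0.17 (SE, adjusted p = 0.11), and Nfia, a factor that favours the red lineage, at 0.62 ± 0.19 (SE, adjusted p = 0.18). Ikzf1 and Foxo3 were at -0.43 ± 0.16 and -0.53 ± 0.21 (SE).

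Factors of stem, myeloid and megakaryocytic cells, which oppose GATA1 or share its sites, had a median of -0.48 over 9 genes. None passed in limma. At a raw p under 0.05, 0 were higher and 4 lower, against 10.5% and 6.93% of all genes. Spi1, which encodes PU.1, the antagonist of GATA1, was at 6.57 and 6.51 in KO and 6.41 and 6.47 in WT, a difference of 0.10 ± 0.17 (SE, adjusted p = 0.82). Runx1, a factor of stem cells and platelets, was at 7.71 and 7.64 in KO and 9.02 and 8.42 in WT, without overlap (-1.05 ± 0.23, SE, adjusted p = 0.10). Mecom, Etv6 and Erg were at -0.87 ± 0.21, -0.80 ± 0.20 and -0.94 ± 0.35 (SE, adjusted p = 0.12, 0.13 and 0.24). The median of the 9 was -0.34 without WT replicate 1 and -0.74 without WT replicate 2.

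Of 23 genes that pass on or restrain the signal of EPOR, limma called 0. At a raw p under 0.05, 1 was higher and 4 lower, against 10.5% and 6.93% of all genes. The median of the 23 was -0.22, but 0.01 without WT replicate 1 and -0.27 without WT replicate 2. Jak2, the kinase bound to the receptor, was at 6.95 and 7.11 in KO and 7.30 and 7.02 in WT. Stat5a, a factor that the kinase activates, was at 6.66 and 6.63 in KO and 6.82 and 6.75 in WT, and Stat5b at 6.60 and 6.49 in KO and 7.55 and 6.69 in WT. Their differences were -0.13 ± 0.19, -0.14 ± 0.17 and -0.58 ± 0.29 (SE, adjusted p = 0.79, 0.75 and 0.38). Socs1, an inhibitor of cytokine signalling, was at 6.59 and 6.62 in KO and 5.81 and 5.83 in WT. These groups were well apart (0.79 ± 0.17, SE), yet the adjusted p was 0.10. Pik3r1, Cbl and Gab1, for a kinase subunit, a ubiquitin ligase and an adaptor, were at -0.68 ± 0.16, -0.66 ± 0.18 and -0.78 ± 0.26 (SE, adjusted p = 0.12, 0.15 and 0.21).

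**Figure D4:**
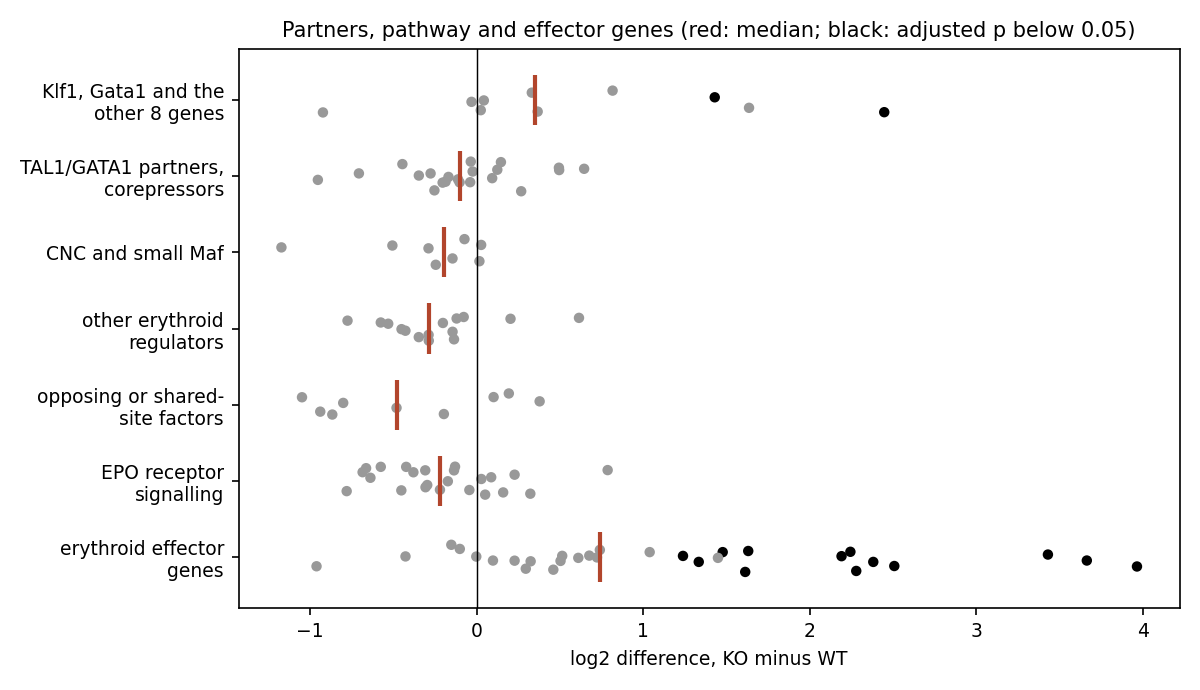
Log2 difference between KO and WT (x axis) for the genes of 7 lists. Each point is a gene, black where the adjusted p was under 0.05, and red lines are list medians. The median is 0.74 for the erythroid effector genes, 0.35 for the 10 factor and receptor genes, and between -0.48 and -0.10 for the other 5 lists.

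Of 31 measured effector genes that GATA1 and KLF1 are known to switch on, 13 rose and 0 fell in limma. Over all genes 0.397% were called higher and 0.113% lower. By the raw p 22 of the 31 were higher and 1 lower, against 10.5% and 6.93% of all genes. This list, like the others, was chosen with earlier results of these data known, so these shares are no independent test of it. The median of the 31 was 0.74, and 0.81 to 0.89 when single arrays were left out. The largest were Ermap and Rhag, for membrane proteins, at 3.97 ± 0.29 and 3.67 ± 0.24, and Car1, a carbonic anhydrase gene, at 3.43 ± 0.20 (SE, adjusted p = 0.0090, 0.0090 and 0.0060). Add2, for a membrane skeleton protein, Tspo2 and the water channel gene Aqp1 followed at 2.51 ± 0.18, 2.38 ± 0.17 and 2.28 ± 0.17 (SE). Kel, the gene of the Kell blood group protein, was at 6.41 and 6.34 in KO and 4.41 and 3.95 in WT (2.19 ± 0.21, SE, adjusted p = 0.021). Tspan33 rose by 1.33 ± 0.18 (SE, adjusted p = 0.0497). Among those that did not pass, Car2 was at 1.04 ± 0.15, the blood group gene Icam4 at 1.45 ± 0.24, Fech, for the last enzyme of heme synthesis, at 0.72 ± 0.18, and Sptb, for beta-spectrin, at 0.74 ± 0.19 (SE, adjusted p = 0.054, 0.065, 0.12 and 0.13). The median was 0.81 without KO replicate 1, 0.89 without KO replicate 2, 0.86 without WT replicate 1 and 0.85 without WT replicate 2. In a fit with 1 KO array calls were lost among all genes, not only these 31. With all probe sets fitted together limma called 2 of the 31.

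Markers of other cells that express these factors were set beside them. All 6 measured erythroblast markers belong to the effector list, and 4 of them, Ermap, Rhag, Kel and Tspan33, rose. Their summed log2 level was 34.3 to 34.9 in KO and 23.6 to 23.9 in WT. Slc4a1, the band-3 anion exchanger gene of maturing red cells, averaged 3.30 ± 0.43 in KO and 4.27 ± 0.17 in WT (SD, n = 2), below the median gene in both groups (-0.96 ± 0.24, SE, adjusted p = 0.13). Epb42, for a membrane skeleton protein, averaged 3.65 ± 0.19 in KO and 2.97 ± 0.04 in WT (SD, n = 2; 0.68 ± 0.17, SE, adjusted p = 0.13). The globin genes, Alas2 and Ahsp were not analysed here. Without the 6 markers, 9 of 25 effector genes rose and 0 fell, with a median of 0.72. The part of erythroblasts in these differences was not tested.

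Of 12 megakaryocyte and platelet markers limma called 0. By the raw p 2 were higher and 1 lower, against 10.5% and 6.93% of all genes. The 12 summed to 58.9 to 59.8 in KO and 57.1 to 57.5 in WT (log2), with a median difference of 0.12, which was 0.0021 without WT replicate 1 and 0.23 without WT replicate 2. Pf4, a platelet chemokine gene, was at 7.65 and 7.66 in KO and 6.01 and 6.76 in WT (1.27 ± 0.26, SE, adjusted p = 0.099), and Gp5, a platelet receptor subunit gene, was at 1.16 ± 0.25 (SE, adjusted p = 0.10). Mmrn1, a platelet granule protein gene, was at 5.45 and 5.04 in KO and 5.98 and 6.12 in WT (-0.80 ± 0.21, SE, adjusted p = 0.14), and 5 of the 12 had a lower mean in KO. Mast cells and basophils also use GATA1. Of their 11 markers 1 rose in limma, the granzyme gene Gzmb by 1.97 ± 0.27 (SE, adjusted p = 0.049). The share called higher among all genes was 0.397%. By the raw p 3 of the 11 were higher and 0 lower. Mcpt8 and Cpa3, both brighter than Gzmb, did not pass. They were at 0.65 ± 0.28 and 0.35 ± 0.30 (SE, adjusted p = 0.30 and 0.61), and the Cpa3 groups overlapped. The 11 summed to 49.8 to 51.2 in KO and 43.4 to 47.1 in WT, with a median difference of 0.32, or 0.22 to 0.45 with each array left out. Only 5 of the 11 were at or above the median gene. The mast cell receptor genes Fcer1a and Ms4a2, both below it, were at 0.92 ± 0.22 and 0.66 ± 0.18 (SE, adjusted p = 0.13 and 0.15). Tpsb2, also below it, was at -0.32 ± 0.16 (SE, adjusted p = 0.36), and 2 of the 11 had a lower mean in KO. Of 5 eosinophil markers limma called 0; by the raw p 1 was higher and 1 lower. They summed to 16.3 to 16.8 in KO and 16.4 to 16.8 in WT. Of the 6 markers of LSK cells and their subsets limma also called 0, and by the raw p 3 were lower. They were Flt3 at -1.21 ± 0.27, Cd34 at -0.68 ± 0.13 and Kit at -0.60 ± 0.23 (SE, adjusted p = 0.11, 0.085 and 0.25). Only Kit among them belongs to the sort. The part of these cell types in the results was not tested.

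The genes whose pattern over the 4 arrays was most like that of Klf1, Gata1 and Epor were taken by the smallest distance between deviations from each gene's own mean, among 10434 named genes no dimmer than the median gene. For Klf1 they were Slc38a5, Igtp and Mt2, at distances of 0.24, 0.33 and 0.39 log2 units. For Gata1 they were Blvra, Eci1 and Mrps35, at 0.030, 0.032 and 0.042. For Epor they were Samd14, C1qtnf12 and Snord49a, at 0.087, 0.22 and 0.27. Among the 10 genes themselves, Gfi1b and Epor were each other's nearest at 0.32, Klf1 lay nearest to Epor at 0.85, and Lmo2 and Nfe2 were each other's nearest at 0.17. These distances describe 4 arrays and carry no test.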

How the data were processed

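Expression was measured on 4 arrays, 2 KO and 2 WT. The authors deposited 1 table of log2 values for 41345 probe sets. RMA and Affymetrix Expression Console 1.2.1 are named per the submitters' processing notes, without settings. The log2 scale was read from the values, while the sources used here do not give the build or filters. The platform annotation gave 23521 probe sets 1 gene symbol and 1814 several; those with 1 were used. Genes with several probe sets kept the one of highest mean. The fit used limma 3.58.1 under R 4.3.3 (KO minus WT, empirical Bayes with an intensity trend, two-sided). P-values were adjusted by Benjamini-Hochberg over 22180 genes. Errors are moderated SEs, or SDs over 2 arrays. No filter on dim genes was applied. With 4 arrays their number limits the precision.

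The members and lists were chosen with earlier results of these data known. Genes named from a list were up to 6 past the threshold and up to 4 others of smallest p, plus partners named for their role. The fit was tested on simulated data. Alternatives were scaling, trend, filter, probe set choice, a replicate block and each array left out. Promoter words were searched in RefSeq's table for GRCm38.p6.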

Additional observations from a re-analysis of the deposited data

How the results depend on the processing

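Calls depended on which arrays and how many features were fitted. All genes called higher in KO numbered 88, and 142 after quantile normalization, 320 with arrays centred on their medians, 208 among the brighter genes (no dimmer than the median), 10 with all probe sets, and 0 to 1730 with each array left out. Genes called lower numbered 25, and 47, 42 and 81 under the first 3 of these, and 0 to 1272 with each array left out. Higher genes were 77.9% of calls, and 88.4% after centring, which moved the median of all genes by 0.13. With all probe sets 17 genes were called lower, more than were called higher, and higher genes were 37.0% of calls. Of the 10 factor and receptor genes, 2 were called higher, against 0 with all probe sets and 0 to 4 with each array left out. None was called lower, against 0 to 2 with each array left out. Genes of the other lists called higher numbered 14, against 2 with all probe sets and 0 to 24 with each array left out, and those called lower 0, against 1 among the brighter genes and 0 to 31 with each array left out. The count with all probe sets is adjusted over more features, and fits without 1 array have fewer samples. Whether this accounts for those counts, and the cause of the other shifts, was not tested.

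Signs turned for 4 genes that had no call. Nfe2 was at -0.0022 without KO replicate 2 and -0.15 without WT replicate 2, and ranged from -0.15 to 0.20 with each array left out. Zfpm1 ranged from -0.54 (without WT replicate 2) to 1.27, and Lmo2 from -0.011 (without WT replicate 2) to 0.098. Ldb1 was at 0.10 after centring, 0.034 without KO replicate 2 and 0.22 without WT replicate 1, and ranged from -0.28 to 0.22. The other 6 genes kept their direction under all 12 alternatives.

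The labels give both groups replicates 1 and 2, without saying that a number marks a shared litter or day. Deviations from the group means correlated at 0.11 across genes. With the replicate block 83 genes were higher and 28 lower, 3 of the 10 were called (Klf1, Gfi1b and Epor, the last at an adjusted p of 0.035), and 11 genes of the other lists were higher.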
